A study of Mus musculus with 36 samples.

Results

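Cells with a single reporter signal, S100β-GFP+ or NG2-dsRed+, were sorted from mouse skeletal muscle and compared across the transcriptome. Libraries were chosen by the cell type that the labels give, S100GFP+ or NG2DsRed+, and by having a column in the count table, which left 8 of 12 S100β-GFP+ and 10 of 12 NG2-dsRed+ libraries, 18 of the 27 libraries with a column and of the 36 labelled. All libraries came from S100β-GFP;NG2-dsRed mice, in which the promoter of S100b drives GFP and the promoter of Cspg4, the gene of the NG2 proteoglycan, drives dsRed, so that every mouse, of the PSC group too, carried both transgenes. Diaphragm, pectoralis, forelimb and hindlimb muscles of mice aged P15 to P21 were pooled by mouse, digested with collagenase II and sorted by FACS, and all cells collected from a mouse made 1 replicate. The age range is that of the study's methods, since the upper age in the labels runs from 21 to 46 in step with the library number. RNA of these few cells was amplified with a SMART-Seq v4 kit. The sources used here do not say whether both gates were sorted from the same mice. The double-positive S100β-GFP+;NG2-dsRed+ cells, the perisynaptic Schwann cells (PSCs) of the neuromuscular junction, entered the fit and are given only beside the Schwann cell genes.

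S100β is a calcium-binding protein best known from glia, including the Schwann cells that ensheath and myelinate motor axons in muscle. NG2 is a proteoglycan of the surface of mural cells, the pericytes and smooth muscle cells that wrap capillaries and arterioles and set their diameter. Muscle also holds endothelium, fibroblasts and fibro-adipogenic progenitors of the connective tissue, tendon cells, resident macrophages and dendritic cells, and the satellite cells that renew the fibres. A sort on a reporter gathers any cell that falls in the gate, and marker genes of these other cells show which of them lie in it. In such bulk samples fewer cells of a type and less RNA per cell cannot be told apart.

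S100β-GFP+ libraries held 5221655 to 9411399 counts on genes (median 7449926), and NG2-dsRed+ libraries held 5712256 to 7918320 (median 6869645). S100β-GFP+ libraries 14, 17 and 22 stood apart. They had counts on 25890, 29103 and 38568 genes and on 462, 777 and 1261 olfactory receptor genes, against 19669 to 23292 genes and at most 214 olfactory receptor genes in the other 15 libraries. Lars2, Gm23935 and Gm15564 together took 19.5% to 39.1% of the counts in S100β-GFP+ and 12.5% to 40% in NG2-dsRed+ libraries. Haemoglobin genes took 1.57%, 9.88% and 4.39% of the counts in libraries 14, 17 and 22, against 2.12% in S100β-GFP+ library 3, 1.18% in NG2-dsRed+ library 2 and at most 0.22% in the others. The study's methods keep 7 S100β-GFP+ replicates where the table has 8, without naming the one left out, so counts are also given without libraries 14, 17 and 22. Levels are CPM, counts scaled to the effective library size after TMM normalization, given as the lowest to the highest library with the median. Fold changes are log2 of S100β-GFP+ over NG2-dsRed+ cells with the standard error after ±, so that a negative value is higher in NG2-dsRed+ cells, and adjusted p-values are those of edgeR's quasi-likelihood test.

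The genes behind the reporters were measured first. S100b (ENSMUSG00000033208, chromosome 10, 76253853 to 76261159) had 9.88 to 40.9 CPM (median 30.5) in S100β-GFP+ and 1.23 to 17.8 CPM (median 5.43) in NG2-dsRed+ libraries (log2 fold change 2.16 ± 0.46, adjusted p = 0.000426). The groups overlapped, as S100β-GFP+ library 14 lay below NG2-dsRed+ libraries 2 and 28, and S100b lies opposite Dip2a on the other strand. Cspg4 (ENSMUSG00000032911, chromosome 9, 56865033 to 56899870) had 34.5 to 148 CPM (median 53.5) in S100β-GFP+ and 487 to 890 CPM (median 667) in NG2-dsRed+ libraries without overlap (log2 fold change -3.23 ± 0.26, adjusted p = 6.95e-11). Both endogenous genes were thus higher in the gate of their own reporter, S100b by the smaller fold change.

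Of 15330 genes tested, 2771 were higher in S100β-GFP+ cells (18.1%) and 2328 were higher in NG2-dsRed+ cells (15.2%). The differences were larger on the S100β-GFP+ side: 1093 genes were at least 4-fold and 291 at least 32-fold higher there, against 518 and 2 in NG2-dsRed+ cells. The median over all genes tested was -0.02. Every S100β-GFP+ library was above every NG2-dsRed+ library for 1106 genes (7.21%), and the reverse held for 672 genes (4.38%). Without libraries 14, 17 and 22 the test gave 2786 and 2736 genes. Among 276 lincRNAs tested, 36 were higher in S100β-GFP+ and 35 in NG2-dsRed+ cells. Protein-coding genes were also ranked by their median per kilobase of exon. Lars2, given above for its share of the counts with Gm23935 and Gm15564, ranked 1 in both gates. In S100β-GFP+ libraries Hbb-bs ranked 2 and Hba-a1 ranked 4. Retnla, Cd74 and Lyz2 ranked 3, 5 and 6 there, at 5824, 4198 and 3721 CPM per kilobase against 15.7, 7.58 and 17.7 in NG2-dsRed+ libraries. In NG2-dsRed+ libraries Igfbp7, Rgs5 and Myl9 were among the 15 highest, at 1521, 1188 and 1110 CPM per kilobase against 340, 37.9 and 124 in S100β-GFP+ libraries.

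**Figure D1:**
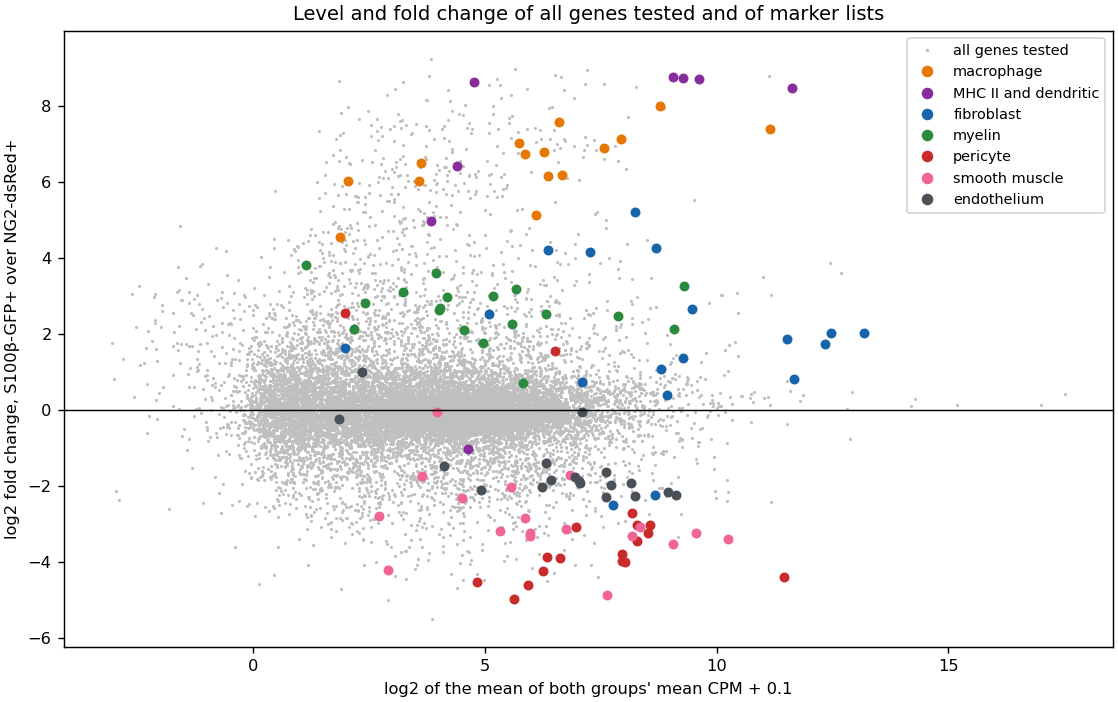
Each grey point is 1 of the 15330 genes tested, with the log2 of its mean level (CPM, both groups) on the x axis and its log2 fold change, S100β-GFP+ over NG2-dsRed+, on the y axis; coloured points are members of marker lists. Macrophage and MHC class II genes reached log2 fold changes of 8.01 and 8.77, fibroblast and myelin genes lay mostly between 0 and 5, and pericyte and smooth muscle genes lay mostly between -2 and -5.

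The 15 protein-coding genes with the largest fold changes in S100β-GFP+ cells included 4 genes of MHC class II. The MHC class II genes H2-Aa, H2-Ab1 and H2-Eb1 encode the chains that present peptides to T cells, and H2-DMb1 encodes a chain of the molecule that loads them. H2-Ab1 (ENSMUSG00000073421, chromosome 17, 34257689 to 34269419) had 364 to 3215 CPM (median 1750) in S100β-GFP+ and 0.618 to 10.1 CPM (median 3.4) in NG2-dsRed+ libraries (log2 fold change 8.70 ± 0.55, adjusted p = 9.84e-13). H2-Aa had 341 to 2515 CPM (median 1297) against 1.39 to 6.24 CPM (median 2.48) (log2 fold change 8.74 ± 0.55, adjusted p = 9.84e-13), and H2-Eb1, which has Gm20513 on the opposite strand, had 191 to 1972 CPM (median 1280) against 0.89 to 5.59 CPM (median 2.18) (log2 fold change 8.77 ± 0.54, adjusted p = 9.84e-13). No NG2-dsRed+ library came near the lowest S100β-GFP+ library for any of these chains, though the rule of choice already required no overlap. The lowest S100β-GFP+ values came from libraries 14, 17 and 22. Genes of the MHC have close relatives, and counts that the counting could split between them are uncertain.

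H2-Aa, H2-Eb1 and H2-DMb1 are shown by their promoters, since these genes stood high together, and class II promoters are known for a conserved Y box, an inverted CCAAT element. The windows span 250 bases before to 50 bases after the gene start (RefSeq, GRCm38.p6), and capitals mark the letters CTGATTGG, searched on both strands. H2-Aa lies on the minus strand (chr17:34287774-34288073), H2-Eb1 (chr17:34305617-34305916) and H2-DMb1 (chr17:34152941-34153240) on the plus strand.
H2-Aa: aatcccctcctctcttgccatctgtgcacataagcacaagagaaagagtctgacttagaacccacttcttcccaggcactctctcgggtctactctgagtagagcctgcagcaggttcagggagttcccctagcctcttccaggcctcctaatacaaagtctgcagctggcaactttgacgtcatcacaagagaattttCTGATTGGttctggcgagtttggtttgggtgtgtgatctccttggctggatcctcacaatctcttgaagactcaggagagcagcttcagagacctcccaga
H2-Eb1: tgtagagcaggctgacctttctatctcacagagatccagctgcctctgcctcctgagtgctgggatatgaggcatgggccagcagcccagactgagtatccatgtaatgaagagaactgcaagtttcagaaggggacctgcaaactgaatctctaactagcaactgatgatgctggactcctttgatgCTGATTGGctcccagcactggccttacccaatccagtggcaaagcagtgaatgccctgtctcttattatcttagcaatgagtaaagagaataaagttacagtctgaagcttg
H2-DMb1: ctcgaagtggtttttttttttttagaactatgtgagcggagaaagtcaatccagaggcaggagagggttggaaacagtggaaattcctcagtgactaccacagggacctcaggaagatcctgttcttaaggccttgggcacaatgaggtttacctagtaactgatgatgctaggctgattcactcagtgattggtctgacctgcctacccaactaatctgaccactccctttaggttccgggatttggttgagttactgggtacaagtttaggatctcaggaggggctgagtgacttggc
The match starts 51 bases before the gene start in H2-Aa and 62 bases before it in H2-Eb1. The window of H2-DMb1 holds no exact match, but it holds gtgattgg, which differs in the first letter only. Other forms of the box were not searched. Of the 10 genes of the MHC class II and dendritic cell list 7 had a promoter in the table, and 2 of these 7 promoters held the motif, against 4.1% of all 32851 promoters. A match is a description of the letters and not a measured site.

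Other leading genes of S100β-GFP+ cells included some known from macrophages and dendritic cells. Retnla, a secreted protein of alternatively activated macrophages, had 551 to 11815 CPM (median 3488) against 2.47 to 32 CPM (median 9.41) (log2 fold change 8.79 ± 0.76, adjusted p = 1.88e-10). Lyz1, a lysozyme whose counts cannot be told from those of its near-identical neighbour Lyz2 with certainty, had 47.1 to 968 CPM (median 381) against 0.254 to 2.6 CPM (median 0.843) (log2 fold change 8.58 ± 0.69, adjusted p = 5.78e-11). Fcrls, a scavenger receptor of the Fc receptor-like family, had 46.4 to 666 CPM (median 305) against 0 to 2.86 CPM (median 0.222) (log2 fold change 8.95 ± 0.64, adjusted p = 7.65e-12). Every S100β-GFP+ library lay above every NG2-dsRed+ library for all 15 genes, as the rule of choice required. Mmp12, the macrophage elastase, had 52.8 to 420 CPM (median 158) against 0 to 1.69 CPM (median 0.33) (log2 fold change 8.75 ± 0.64), and overlaps Mmp1b on the opposite strand. Itgax, the integrin chain CD11c of dendritic cells, had 9.22 to 84 CPM (median 72.1) against 0 to 0.526 CPM (median 0) (log2 fold change 8.62 ± 0.58). Gpr132, a G protein-coupled receptor of myeloid and lymphoid cells, had 12.5 to 146 CPM (median 83.7) against 0 to 0.707 CPM (median 0.0787) (log2 fold change 8.72 ± 0.63), and H2-DMb1 had 25.3 to 205 CPM (median 107) against 0 to 0.456 CPM (median 0.15) (log2 fold change 8.98 ± 0.61). Single libraries with a few counts moved some of these values, Fcrls to 9.86 and Mmp12 to 9.34 without NG2-dsRed+ library 26, and Gpr132 to 9.35 without NG2-dsRed+ library 30.

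Several of the 15 were nearly without counts in NG2-dsRed+ cells. Hcst, which encodes the signaling adaptor DAP10 of leukocytes, had 375 counts over the 8 S100β-GFP+ libraries and 0 over the 10 NG2-dsRed+ libraries, at least 172-fold higher against a floor of 3 counts over the group. Bcl2a1a, a survival gene of the BCL2 family with near-identical copies in the genome, had 1473 and 2 counts, a ratio of normalized levels of 1015 with an exact counting interval of 280 to 8389. Slamf7, a receptor of immune cells, had 1419 and 3 counts, a ratio of 652 (223 to 3165), and the receptor gene Mrgprg had 899 and 2 counts, a ratio of 619 (171 to 5123). These intervals cover counting error only. Akr1c18, an enzyme that inactivates progesterone, is not commonly linked to leukocytes, and had 46.7 to 474 CPM (median 150) against 0 to 1.43 CPM (median 0.289) (log2 fold change 8.82 ± 0.58, adjusted p = 1.75e-12).

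**Figure D2:**
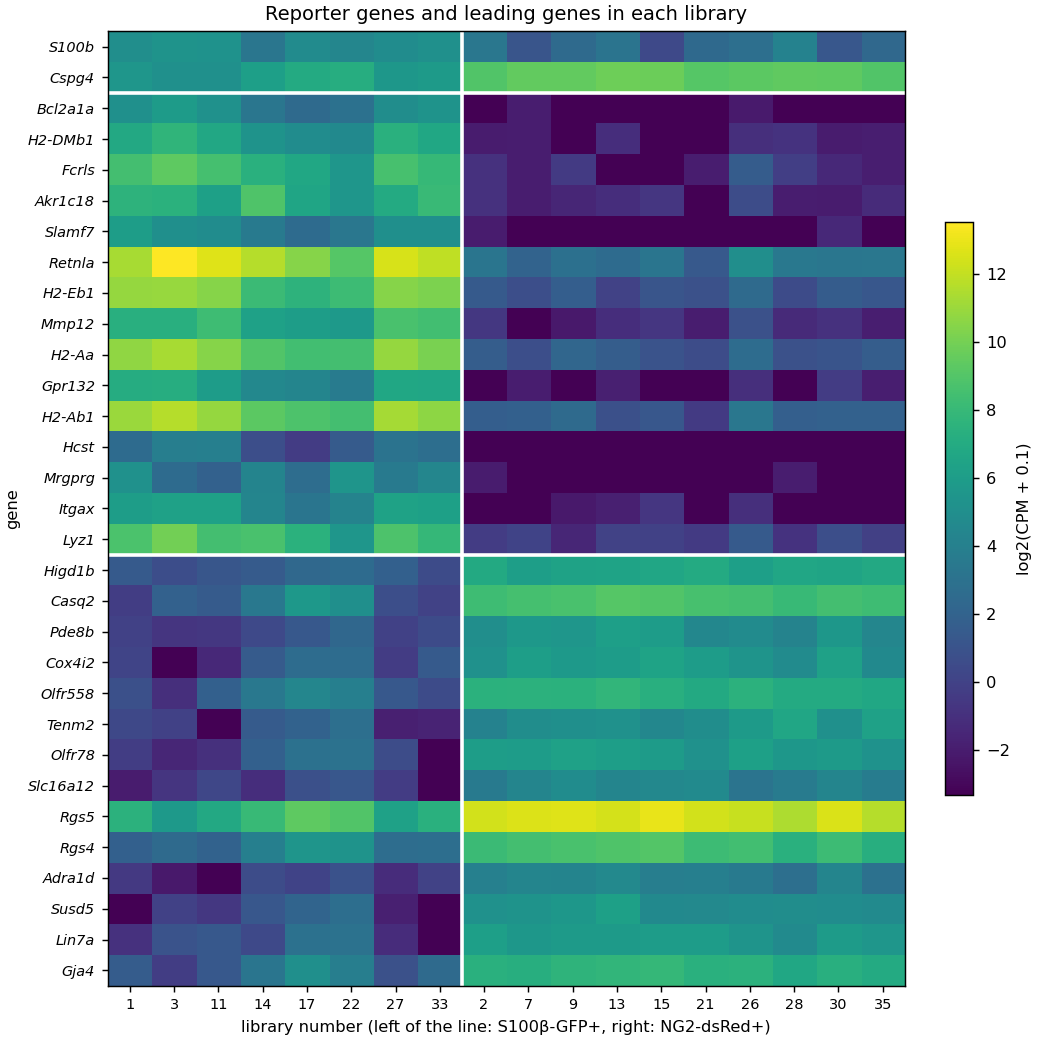
Heat map of log2(CPM + 0.1) of S100b and Cspg4 (top), the 15 leading genes of S100β-GFP+ cells (middle) and 14 of the 15 of NG2-dsRed+ cells (bottom) in each of the 18 libraries, numbered on the x axis. Within S100β-GFP+ cells, libraries 14, 17 and 22 were low for most myeloid genes, such as H2-Ab1, and libraries 17 and 22 were the highest for most of the NG2-dsRed+ leading genes, such as Rgs5 and Casq2.

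The 15 leading genes of NG2-dsRed+ cells included genes known from mural cells. Rgs5, a regulator of G protein signaling and a classical pericyte gene (ENSMUSG00000026678, chromosome 1, 169655501 to 169695813), had 54.1 to 659 CPM (median 172) in S100β-GFP+ and 2775 to 7921 CPM (median 5400) in NG2-dsRed+ libraries (log2 fold change -4.41 ± 0.43, adjusted p = 1.85e-09). Higd1b, another gene of pericytes, had 1.33 to 5.76 CPM (median 2.72) against 68.6 to 125 CPM (median 94.9) (log2 fold change -4.97 ± 0.42, adjusted p = 1.68e-10). Rgs4, a relative of Rgs5, had 3.48 to 44.2 CPM (median 6.46) against 152 to 512 CPM (median 326) (log2 fold change -4.40 ± 0.48, adjusted p = 2.1e-08). No S100β-GFP+ library reached an NG2-dsRed+ library for any of the 15 genes, as the rule of choice required. Casq2, the calcium store protein calsequestrin, had 0.726 to 51.6 CPM (median 3.2) against 267 to 538 CPM (median 370) (log2 fold change -4.88 ± 0.65, adjusted p = 5.69e-07), and S100β-GFP+ library 17 had the 51.6 CPM. Gja4, the gap junction protein connexin 37 of vessel walls, had 0.75 to 33.1 CPM (median 4.23) against 106 to 241 CPM (median 165) (log2 fold change -4.30 ± 0.50). Without S100β-GFP+ library 17, Casq2 and Gja4 came to -5.65 and -5.01.

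Among the other leading genes, Cox4i2, an oxygen-sensitive subunit of cytochrome c oxidase, had 0 to 6.15 CPM (median 1.84) against 25.7 to 86.2 CPM (median 58.9) (log2 fold change -4.52 ± 0.60, adjusted p = 5.52e-07). Adra1d, an alpha-1 adrenergic receptor that contracts arteries, had 0 to 1.81 CPM (median 0.734) against 7.15 to 23.8 CPM (median 15.8) (log2 fold change -4.37 ± 0.55, adjusted p = 2.5e-07). A pair of olfactory receptor genes that vessel walls also use was among the leading genes, Olfr558 with 0.375 to 20.8 CPM (median 2.95) against 105 to 219 CPM (median 162) (log2 fold change -4.51 ± 0.53, adjusted p = 5.8e-08) and Olfr78 with 0 to 8.06 CPM (median 1.06) against 36.4 to 81.5 CPM (median 62) (log2 fold change -4.47 ± 0.68, adjusted p = 5.12e-06). Olfr558 overlaps Gm45688 and Olfr78 overlaps Olfr560, and their highest S100β-GFP+ values came from libraries 17 and 22. The phosphodiesterase gene Pde8b, the teneurin gene Tenm2, the monocarboxylate transporter gene Slc16a12, the sushi domain gene Susd5 and the scaffold gene Lin7a were also among them, with log2 fold changes of -4.70, -4.48, -4.45, -4.32 and -4.31. Among these Susd5 had 0 to 6.75 CPM (median 0.714) against 24.6 to 75.6 CPM (median 29.9) (adjusted p = 2.34e-06). Without S100β-GFP+ library 22, Tenm2 came to -5.15 and Susd5 to -5.05. Without libraries 14, 17 and 22 all 15 genes, Higd1b and Rgs5 among them, had larger fold changes, from -5.16 for Slc16a12 to -7.60 for Casq2.

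Lists of marker genes were then read across both gates, beginning with immune cells. Their counts stand beside the 18.1% of all genes tested that were higher in S100β-GFP+ and the 15.2% higher in NG2-dsRed+ cells. All 15 macrophage markers were higher in S100β-GFP+ cells, with fold changes from 4.55 to 8.01 and a median of 6.73 against -0.02 over all genes. None of their libraries overlapped, and 7.21% of all genes were without overlap in this direction. The summed level of the macrophage markers was 1452 to 14359 CPM (median 8128) in S100β-GFP+ and 17.0 to 85.8 CPM (median 48.1) in NG2-dsRed+ libraries. The lowest sums on the S100β-GFP+ side were in libraries 22, 17 and 14, at 1452, 2972 and 4387 CPM. Without these 3 libraries all 15 stayed higher, with a median of 7.12. Lyz2, a lysozyme of macrophages and neutrophils, had 868 to 8898 CPM (median 4897) against 7.1 to 54.4 CPM (median 23.3) (log2 fold change 7.39 ± 0.60, adjusted p = 7.51e-11). Ctss, the lysosomal protease cathepsin S, had 113 to 2013 CPM (median 585) against 0.63 to 10.2 CPM (median 2.05) (log2 fold change 8.01 ± 0.69, adjusted p = 1.88e-10). Csf1r, the receptor for the macrophage growth factor CSF1, had 52.8 to 342 CPM (median 226) against 1.13 to 4.69 CPM (median 3.06) (log2 fold change 6.19 ± 0.40, adjusted p = 1.31e-12).

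Complement component genes that macrophages make belonged to the same group. C1qb had 88.5 to 670 CPM (median 390) against 0.175 to 7 CPM (median 3.07) (log2 fold change 6.90 ± 0.51, adjusted p = 1.52e-11), and Mrc1, the mannose receptor of resident macrophages, had 39.5 to 279 CPM (median 149) against 0 to 3.92 CPM (median 0.789) (log2 fold change 6.80 ± 0.58, adjusted p = 1.74e-10). Adgre1, which encodes the macrophage antigen F4/80, had 20.9 to 175 CPM (median 117) against 0 to 2.89 CPM (median 0.674) (log2 fold change 7.03 ± 0.58, adjusted p = 1.05e-10). Of the 8 tested genes of dendritic cells and MHC class II 7 were higher in S100β-GFP+ cells, with a median of 8.55. Cd74, the invariant chain that escorts class II molecules, had 1420 to 11451 CPM (median 7049) against 7.88 to 46.8 CPM (median 12.7) (log2 fold change 8.47 ± 0.60, adjusted p = 7.19e-12), and Ciita, their master regulator, had 12.8 to 74.9 CPM (median 40.7) against 0 to 3.03 CPM (median 0.16) (log2 fold change 6.43 ± 0.61, adjusted p = 1.11e-09, 7.50 without NG2-dsRed+ library 13). Batf3, a transcription factor of cross-presenting dendritic cells, had 7.41 to 69.7 CPM (median 28.5) against 0 to 2.14 CPM (median 0.551) (log2 fold change 4.97 ± 0.59). Zbtb46, which dendritic cells share with endothelium, was the 1 member higher in NG2-dsRed+ cells, with 7.06 to 36.4 CPM (median 14.8) against 17.3 to 46.1 CPM (median 36.5) (log2 fold change -1.04 ± 0.33, adjusted p = 0.0157). Without libraries 14, 17 and 22 the test took in 10 members, of which 9 were higher in S100β-GFP+ cells.

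Genes of other leukocytes mostly had low counts. None of the 12 lymphocyte genes passed the filter on low counts, and their summed level was at most 25.9 CPM in a library. With no filter 3 of them were higher in S100β-GFP+ cells with edgeR and 2 with DESeq2. With the filter 1 was so without libraries 14, 17 and 22, or without S100β-GFP+ library 1, 11, 14, 27 or 33. Of the 11 genes of granulocytes and mast cells only S100a8 and S100a9, alarmins of neutrophils, were tested, and both were higher in NG2-dsRed+ cells. With no filter 4 of the 11 were higher in S100β-GFP+ cells with edgeR and 1 with DESeq2, beside others higher in NG2-dsRed+ cells. S100a9 had 0 to 2.13 CPM (median 0.329) against 0 to 202 CPM (median 7.92) (log2 fold change -5.50 ± 1.43, adjusted p = 0.00318), and NG2-dsRed+ library 2 had the 202 CPM. The groups overlapped for both genes. With limma-voom neither passed (log2 fold changes -3.59 and -3.34 for S100a8 and S100a9, adjusted p = 0.0824 and 0.171). Without library 2, S100a9 came to -3.82, and S100a8 no longer passed the filter on low counts without library 2, 7, 15, 26, 28 or 35.

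Fibroblast genes were also mostly higher in S100β-GFP+ cells. Of the 18 members 14 were higher in S100β-GFP+ cells and 2 were higher in NG2-dsRed+ cells, with a median of 1.80, and without libraries 14, 17 and 22 the numbers were 13 and 2. Their summed level was 29506 to 66942 CPM (median 44884) in S100β-GFP+ and 4567 to 29869 CPM (median 13387) in NG2-dsRed+ libraries. The groups overlapped through S100β-GFP+ library 3 and NG2-dsRed+ library 28, and the other 7 S100β-GFP+ libraries lay above all NG2-dsRed+ libraries. Col3a1, a fibrillar collagen, had 8646 to 20773 CPM (median 14674) against 972 to 7146 CPM (median 3986) (log2 fold change 2.02 ± 0.33, adjusted p = 1.51e-05). Col1a1, the main collagen of connective tissue, had 6027 to 11980 CPM (median 9187) against 591 to 4605 CPM (median 2146) (log2 fold change 2.02 ± 0.38, adjusted p = 9.07e-05). The 3 largest fold changes of the list were in Pi16, Dpt and Dpp4. Pi16 had 333 to 1077 CPM (median 515) against 2.45 to 28.5 CPM (median 15.3) (log2 fold change 5.22 ± 0.45, adjusted p = 1.72e-10), and Dpt, which encodes the matrix protein dermatopontin, had 491 to 1167 CPM (median 727) against 14.2 to 94.8 CPM (median 33.8) (log2 fold change 4.25 ± 0.34, adjusted p = 4.45e-11). Dpp4 had 92.1 to 270 CPM (median 145) against 3.55 to 17.5 CPM (median 8.38) (log2 fold change 4.20 ± 0.34, adjusted p = 5.62e-11). Ly6a and Cd34, surface markers of fibro-adipogenic progenitors, were higher by less than the median of the list (log2 fold changes 1.36 ± 0.28 and 1.08 ± 0.24).

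The fibroblast genes on the other side were Smoc2, a matricellular protein, with 38.4 to 139 CPM (median 58.9) against 79.4 to 939 CPM (median 309) (log2 fold change -2.50 ± 0.39, adjusted p = 8.16e-06), and Col15a1, a collagen of the basement membrane zone, with 87.4 to 270 CPM (median 127) against 382 to 1193 CPM (median 689) (log2 fold change -2.25 ± 0.29, adjusted p = 3e-07). Pdgfra, the receptor that defines fibro-adipogenic progenitors, did not pass the test, at 93.7 to 258 CPM (median 159) against 16.2 to 246 CPM (median 84.8) (log2 fold change 0.74 ± 0.37, adjusted p = 0.124), nor did the proteoglycan gene Lum, at 315 to 882 CPM (median 525) against 60.7 to 1180 CPM (median 345) (log2 fold change 0.39 ± 0.41, adjusted p = 0.515). Within NG2-dsRed+ cells the fibroblast sum was highest in libraries 28 and 35, at 29869 and 24159 CPM, which also had the lowest pericyte sums of that gate, at 6392 and 6635 CPM. Library 28 also had the lowest endothelial sum, at 2492 CPM. With library 28 or library 35 left out 15 fibroblast genes were higher in S100β-GFP+ cells. Pdgfra then passed the edgeR test, at 0.97 without library 28 (adjusted p = 0.0416) and 1.02 without library 35 (adjusted p = 0.0278). With limma-voom on all libraries Pdgfra also passed (log2 fold change 1.11, adjusted p = 0.00477).

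Tendon genes leaned the same way as fibroblast genes. Of 11 tenocyte genes tested 8 were higher in S100β-GFP+ cells and none in NG2-dsRed+ cells, with a median of 2.42, and without libraries 14, 17 and 22 the number was 7. Scx, the transcription factor of tendon progenitors, had 2.14 to 16.5 CPM (median 5.11) against 0 to 2.14 CPM (median 0.398) (log2 fold change 3.16 ± 0.74, adjusted p = 0.00116), and Kera, the proteoglycan keratocan, had 7.32 to 74.2 CPM (median 21.6) against 0.26 to 2.79 CPM (median 0.908) (log2 fold change 4.60 ± 0.68, adjusted p = 2.95e-06). The summed level was unequal among S100β-GFP+ libraries, at 2235 CPM in library 1 and 250 to 1081 CPM in the others, against 151 to 573 CPM in NG2-dsRed+ libraries. Chondrocyte genes gave 1 of 8 higher in S100β-GFP+ and 2 in NG2-dsRed+ cells, also without libraries 14, 17 and 22, near the 18.1% and 15.2% of all genes. The latter were Sox5 and Sox6, transcription factors with uses beyond cartilage, at log2 fold changes of -1.97 ± 0.19 and -1.84 ± 0.30, and the former was Col9a3, a cartilage collagen gene, at 1.98 ± 0.56. Of 6 adipocyte genes tested 3 were higher in S100β-GFP+ and 2 in NG2-dsRed+ cells (3 and 3 without libraries 14, 17 and 22). Adipoq, the hormone adiponectin of fat cells, had 1.55 to 42.6 CPM (median 12.1) against 0 to 0.634 CPM (median 0) (log2 fold change 7.09 ± 0.99, adjusted p = 1.3e-06), and Plin1 and Cfd went the same way (log2 fold changes 5.63 ± 0.81 and 7.39 ± 1.47). Fabp4, a fatty acid carrier that adipocytes share with capillary endothelium, had 31.1 to 1360 CPM (median 204) against 1182 to 2885 CPM (median 1977) (log2 fold change -2.16 ± 0.56, adjusted p = 0.0029), and the lipase gene Lipe had a log2 fold change of -0.76 ± 0.26 (adjusted p = 0.0224), a call lost without NG2-dsRed+ library 2 (adjusted p = 0.0542) or S100β-GFP+ library 27 (adjusted p = 0.0513). Without NG2-dsRed+ library 9, Adipoq came to 8.31. Adipoq, Plin1, Cfd and Col9a3 passed the filter on low counts only with the PSC libraries in the table, and had no test in a fit of the 2 cell types alone.

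Schwann cell genes were mostly higher in S100β-GFP+ than in NG2-dsRed+ cells, but far under their level in PSCs. Of 15 Schwann cell lineage genes tested 12 were higher in S100β-GFP+ and 1 in NG2-dsRed+ cells, with a median of 2.16. The numbers were the same without libraries 14, 17 and 22 (median 2.39). S100b, whose promoter drives GFP, is a member of this list and among the 12, so its direction is no separate evidence. Without S100β-GFP+ library 33 there were 2 on the NG2-dsRed+ side. Sox2 and Fabp7 then lost their calls on the S100β-GFP+ side (log2 fold changes 1.07 and 0.94, adjusted p = 0.178 and 0.123). With limma-voom on all libraries neither passed (adjusted p = 0.119 and 0.175). The summed level of the lineage list was 274 to 831 CPM in S100β-GFP+ and 113 to 596 CPM in NG2-dsRed+ libraries, against 3537 to 5646 CPM in the double-positive PSC libraries. Sox10, the transcription factor that defines the lineage, had 5.57 to 38.8 CPM (median 16.9) in S100β-GFP+ and 1.46 to 9.79 CPM (median 3.91) in NG2-dsRed+ libraries (log2 fold change 2.18 ± 0.32, adjusted p = 3.07e-06), with a mean of 506 CPM in PSCs. Gap43, a growth protein of axons and non-myelinating Schwann cells, had the largest fold change of the list and no overlap, with 18.4 to 101 CPM (median 55.7) against 0.154 to 1.67 CPM (median 0.537) (log2 fold change 6.28 ± 0.84, adjusted p = 6.5e-07).

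In S100β-GFP+ libraries the median summed level was 8128 CPM for macrophage and 12430 CPM for MHC class II and dendritic cell genes. It was 354 CPM for the lineage list and 3202 CPM for genes of myelinating Schwann cells. The lists differ in size and in the level of their members, so these sums are not shares of cells. The study takes the cells of this gate as Schwann cells, with imaging of muscle and with microscopy and qPCR of both reporters in sorted cells. The group is called by its gate here. The lineage member higher in NG2-dsRed+ cells was Matn2, a matrix protein, with 36 to 113 CPM (median 57.7) against 51.5 to 470 CPM (median 153) (log2 fold change -1.54 ± 0.32, adjusted p = 0.000384). Cdh19 and Ngfr, a cadherin and a neurotrophin receptor of Schwann cells, did not pass the test, with log2 fold changes of 0.07 ± 0.39 and -0.37 ± 0.46 (adjusted p = 0.911 and 0.586). Ngfr passed the test on the NG2-dsRed+ side without S100β-GFP+ library 33, at -1.28 (adjusted p = 0.00878). All 18 genes of myelinating Schwann cells were higher in S100β-GFP+ cells, with fold changes from 0.71 to 3.82 and a median of 2.66, and all 18 stayed so without libraries 14, 17 and 22. Their summed level was 1701 to 4332 CPM in S100β-GFP+ and 342 to 1198 CPM in NG2-dsRed+ libraries, without overlap. Pmp22, a membrane protein of peripheral myelin, had 629 to 1192 CPM (median 912) against 129 to 355 CPM (median 170) (log2 fold change 2.13 ± 0.18, adjusted p = 1.36e-10), and Mag, the adhesion protein of myelin facing the axon, had 8.65 to 59.9 CPM (median 25.7) against 0.456 to 5.96 CPM (median 1.82) (log2 fold change 3.60 ± 0.38, adjusted p = 7.5e-09). Egr2, the myelination factor that is also an immediate early gene, had the smallest fold change, with 41.1 to 124 CPM (median 67.5) against 30.4 to 62.9 CPM (median 42.2) (log2 fold change 0.71 ± 0.19, adjusted p = 0.00532).

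The other cells of nerve gave mixed counts. Of 6 perineurial genes tested 4 were higher in NG2-dsRed+ cells, among them the tight junction gene Cldn1 with 4 to 20.6 CPM (median 8.87) against 27.1 to 91.1 CPM (median 55.8) (log2 fold change -2.52 ± 0.31, adjusted p = 1.8e-07). Itgb4, Lypd2 and Tjp1 were the others, with log2 fold changes of -1.64, -2.59 and -1.40, and Lypd2 came to -3.41 without S100β-GFP+ library 14. The counts without libraries 14, 17 and 22 were 5 of 7, and 1 in S100β-GFP+ cells. Of 6 endoneurial fibroblast genes 3 were higher in NG2-dsRed+ cells, Etv1, Cdh6 and Meox1, and 1 in S100β-GFP+ cells, the Wnt inhibitor gene Wif1, with the same counts without libraries 14, 17 and 22. Meox1 had 2.22 to 14.7 CPM (median 5.87) against 24.8 to 84.4 CPM (median 31.8) (log2 fold change -2.58 ± 0.39, adjusted p = 4.67e-06) and Wif1 had 3.13 to 32.8 CPM (median 10.7) against 0.154 to 3.56 CPM (median 0.946) (log2 fold change 3.42 ± 0.75, adjusted p = 0.000569). Of 14 neuronal genes 4 were tested, and 6 without libraries 14, 17 and 22, with the same numbers of calls. Nefm and Uchl1 were higher in S100β-GFP+ cells (log2 fold changes 4.07 ± 0.72 and 2.98 ± 0.65) and Stmn2 in NG2-dsRed+ cells, with 0.145 to 20.8 CPM (median 5.76) against 22.7 to 46.9 CPM (median 34.2) (log2 fold change -2.35 ± 0.47, adjusted p = 0.000195). Melanocyte genes gave 2 of 5 higher in S100β-GFP+ cells, also without libraries 14, 17 and 22. These were Mitf, a transcription factor that myeloid cells also use, with 18 to 41.7 CPM (median 30) against 7.67 to 14.4 CPM (median 10.3) (log2 fold change 1.44 ± 0.20, adjusted p = 1.44e-06), and the pigment gene Tyrp1 (log2 fold change 4.77 ± 0.85, 5.79 without NG2-dsRed+ library 2 and 3.81 without S100β-GFP+ library 1). Nefm came to 4.74 without NG2-dsRed+ library 35.

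Mural cell genes were mostly higher in NG2-dsRed+ cells. Of 18 pericyte genes 16 were higher in NG2-dsRed+ cells and 2 in S100β-GFP+ cells, with a median of -3.84, and the counts were the same without libraries 14, 17 and 22 (median -4.40). Their summed level was 312 to 1642 CPM in S100β-GFP+ and 6392 to 15764 CPM in NG2-dsRed+ libraries. The highest S100β-GFP+ sums were in libraries 17, 22 and 14. Cspg4, whose promoter drives dsRed, is a member of this list and among the 16. The sort chose cells by that promoter, so its direction is no separate evidence. Pdgfrb, the receptor through which endothelium recruits pericytes, had 31.5 to 136 CPM (median 63.2) against 335 to 999 CPM (median 702) (log2 fold change -3.03 ± 0.35, adjusted p = 6.09e-08). Kcnj8 and Abcc9 encode the subunits of the vascular ATP-sensitive potassium channel, and Abcc9 had 31.7 to 123 CPM (median 70.2) against 288 to 829 CPM (median 527) (log2 fold change -3.03 ± 0.37, adjusted p = 1.43e-07). Vtn, the matrix protein vitronectin, had 8.75 to 59.7 CPM (median 31) against 345 to 635 CPM (median 432) (log2 fold change -3.80 ± 0.29, adjusted p = 2.92e-11). The 2 on the other side were Anpep, an aminopeptidase also found on fibroblasts and myeloid cells, with 67.6 to 249 CPM (median 133) against 24.4 to 72.3 CPM (median 43.6) (log2 fold change 1.54 ± 0.34, adjusted p = 0.00065), and the collectin gene Colec11 with 1.12 to 17.3 CPM (median 5.77) against 0 to 1.98 CPM (median 1.25) (log2 fold change 2.55 ± 0.55, adjusted p = 0.000551).

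Contractile genes of vascular smooth muscle were higher in NG2-dsRed+ cells for 17 of 18 members, with a median of -3.17, and again for 17 of 18 without libraries 14, 17 and 22. Their summed level was 257 to 1169 CPM in S100β-GFP+ and 5098 to 11310 CPM in NG2-dsRed+ libraries. Acta2, smooth muscle actin, had 46.1 to 316 CPM (median 223) against 1388 to 3787 CPM (median 2173) (log2 fold change -3.39 ± 0.37, adjusted p = 1.68e-08). Myh11, the smooth muscle myosin heavy chain, had 14.4 to 154 CPM (median 99.3) against 668 to 1733 CPM (median 984) (log2 fold change -3.53 ± 0.43, adjusted p = 1.55e-07). Myl9, the regulatory myosin light chain, had 67.2 to 219 CPM (median 144) against 1038 to 1867 CPM (median 1290) (log2 fold change -3.24 ± 0.32, adjusted p = 2.82e-09). None of these overlapped between the gates. The member that did not pass was Actg2, the actin of visceral smooth muscle, with 1.87 to 41.9 CPM (median 9.99) against 3.55 to 54.5 CPM (median 11.9) (log2 fold change -0.06 ± 0.56, adjusted p = 0.947).

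Myl9 is shown by its promoter as a gene among the 2 contractile genes whose windows held the CArG box. Contractile genes are known targets of serum response factor, which binds this box. The same window (RefSeq, GRCm38.p6, chr2:156775214-156775513, plus strand) has the box in capitals.
Myl9: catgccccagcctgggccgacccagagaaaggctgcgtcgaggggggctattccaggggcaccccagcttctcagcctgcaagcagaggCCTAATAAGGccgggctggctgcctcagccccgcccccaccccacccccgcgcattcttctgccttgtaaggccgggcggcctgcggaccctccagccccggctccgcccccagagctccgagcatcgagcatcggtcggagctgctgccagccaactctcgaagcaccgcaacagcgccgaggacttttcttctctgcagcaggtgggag
The CArG box was searched on both strands and starts 161 bases before the gene start. Of the 18 contractile genes 15 had a promoter in the table, with 19 windows, and 2 genes (Myl9 and Ldb3) held the box in 3 windows, against 1.63% of all 32851 promoters. The match describes the letters and is not a measured site. Srf itself had 13.1 to 25.3 CPM (median 18) against 29.8 to 54.7 CPM (median 34.5) (adjusted p = 8.12e-06). Myocd, its cofactor in smooth muscle, had 0.75 to 4.26 CPM (median 3.17) against 9.88 to 21.7 CPM (median 15.5) (log2 fold change -2.42 ± 0.61, adjusted p = 0.0024). Both were without overlap between the gates. The part of Srf and Myocd in the contractile genes was not tested.

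Endothelial genes were also on the NG2-dsRed+ side. Of 18 members 13 were higher in NG2-dsRed+ cells and none in S100β-GFP+ cells, with a median of -1.90. The S100β-GFP+ libraries were divided: the summed level was 1417, 4708 and 2685 CPM in libraries 14, 17 and 22 and 210 to 349 CPM in the other 5, against 2492 to 6340 CPM in NG2-dsRed+ libraries. Without the 3 libraries 15 members were higher in NG2-dsRed+ cells and the median was -4.80. Cdh5, the cadherin of endothelial junctions, had 5.99 to 796 CPM (median 41.1) against 650 to 1143 CPM (median 950) (log2 fold change -2.24 ± 0.63, adjusted p = 0.00608). Flt1, a receptor for VEGF, had 9.54 to 405 CPM (median 25.8) against 294 to 755 CPM (median 520) (log2 fold change -2.28 ± 0.56, adjusted p = 0.00186), and Pecam1, the adhesion molecule CD31, had 8.88 to 466 CPM (median 22.4) against 196 to 629 CPM (median 483) (log2 fold change -1.92 ± 0.61, adjusted p = 0.0142). The groups overlapped through library 17 for Cdh5 and Flt1 and through libraries 17 and 22 for Pecam1. Without library 17 these genes came to -3.08, -3.06 and -2.72, and without the 3 libraries to -5.27, -4.80 and -4.82. The part of endothelium in the other differences was not tested.

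Red blood cell genes followed the libraries more than the gates. Of 7 erythroid genes tested 5 were higher in S100β-GFP+ cells with a median of 3.51, and 0 were so without libraries 14, 17 and 22 (median 0.89), by the same edgeR test, with 0 also at an unadjusted p under 0.05. Without library 17 alone 1 of them was higher. Hbb-bs, an adult beta globin with a near-identical copy, had 10.7 to 56040 CPM (median 4580) against 210 to 4709 CPM (median 658) (log2 fold change 3.61 ± 1.17, adjusted p = 0.0169), and its call was lost without library 17 (log2 fold change 2.57, adjusted p = 0.0747). The summed level was 24.9 to 61.5 CPM in S100β-GFP+ libraries 1, 11 and 33 and 131376 CPM in library 17. The part of these genes in the other differences was not tested.

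Few genes of muscle cells passed the edgeR test, and more did so under other settings. Of 11 satellite cell and myoblast genes 1 was higher in NG2-dsRed+ cells, Itga7, an integrin chain that vascular smooth muscle also uses, with 8.03 to 39.5 CPM (median 17.2) against 168 to 284 CPM (median 225) (log2 fold change -3.41 ± 0.30, adjusted p = 3.2e-10). Pax7, which defines satellite cells, had 0.222 to 12.3 CPM (median 2.5) against 1.22 to 12.5 CPM (median 4.75) (log2 fold change -0.42 ± 0.49, adjusted p = 0.557), and Myod1 had 0 to 4.02 CPM (median 1.37) against 0.647 to 4.82 CPM (median 2.13) (log2 fold change -0.66 ± 0.63, adjusted p = 0.465). Without libraries 14, 17 and 22 there were 6 higher in NG2-dsRed+ cells, Pax7 among them at -1.49 (adjusted p = 0.0256), and the median went from -0.61 to -1.55. Without library 17 or without library 22 there were 2. With limma-voom 8 of the 11 were higher in NG2-dsRed+ cells, Myod1 among them at -1.65 (adjusted p = 0.0413). The summed level of the list was 16.9 to 113 CPM (median 29.9) in S100β-GFP+ and 188 to 327 CPM (median 254) in NG2-dsRed+ libraries, with Itga7 as its largest member. Of 15 genes of muscle fibres 1 was higher in NG2-dsRed+ cells, the slow troponin gene Tnnt1 (log2 fold change -1.23 ± 0.45, adjusted p = 0.0327), and without libraries 14, 17 and 22 there were 2, Tnnt1 not among them. The call of Tnnt1 was lost without any of 7 libraries (S100β-GFP+ 1, 14, 27 and 33, NG2-dsRed+ 2, 28 and 35), with adjusted p from 0.0517 to 0.0713. Acta1, skeletal actin, had 91.9 to 259 CPM (median 137) against 64.2 to 240 CPM (median 206) (log2 fold change -0.18 ± 0.31, adjusted p = 0.707), and Ckm, muscle creatine kinase, had 21.8 to 70.9 CPM (median 37.8) against 19.2 to 71 CPM (median 51.9) (log2 fold change -0.21 ± 0.43, adjusted p = 0.755). Of 6 genes of the synaptic nuclei of fibres 3 were higher in NG2-dsRed+ cells, Etv5, Ache and Ufsp1 (4 without libraries 14, 17 and 22). Ache, acetylcholinesterase, had 0.174 to 2.14 CPM (median 1.05) against 7.61 to 20.8 CPM (median 13.7) (log2 fold change -3.53 ± 0.37, adjusted p = 7.71e-09).

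**Figure D3:**
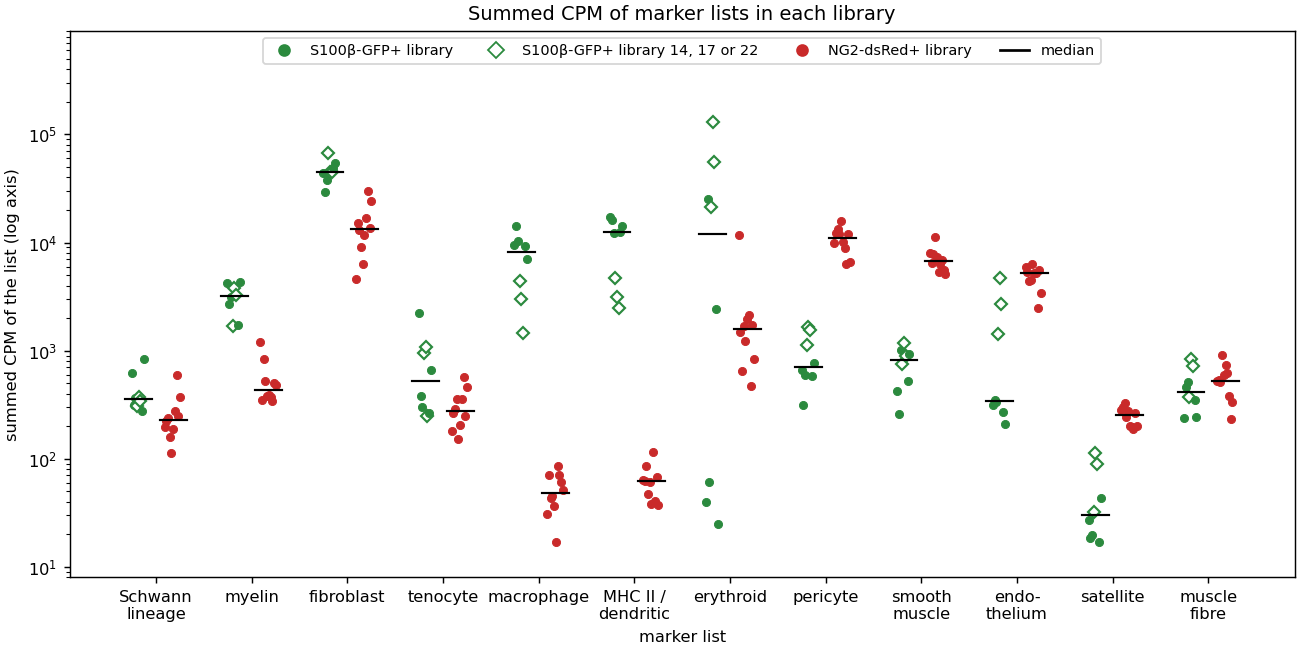
Summed CPM (log axis) of 12 marker lists, with a point for each library, a black line at the median and open diamonds for S100β-GFP+ libraries 14, 17 and 22. Macrophage, MHC class II and myelin sums were higher in every S100β-GFP+ library than in every NG2-dsRed+ library, fibroblast sums in 7 of 8, pericyte, smooth muscle and satellite cell sums (the last with Itga7 as the largest member) were lower in every one, and endothelial sums overlapped through libraries 17 and 22.

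Functions followed next. Interstitial matrix genes were higher in S100β-GFP+ cells for 12 of 21 members and in NG2-dsRed+ cells for 1, with a median of 0.89 (10 and 1 without libraries 14, 17 and 22). Fn1, fibronectin, had 2365 to 6199 CPM (median 3997) against 230 to 1084 CPM (median 467) (log2 fold change 3.02 ± 0.37, adjusted p = 1.41e-07). Postn, periostin, had 1141 to 2755 CPM (median 2001) against 63.1 to 751 CPM (median 180) (log2 fold change 3.03 ± 0.33, adjusted p = 1.72e-08), and Fbn1, the microfibril protein fibrillin-1, had 1258 to 4283 CPM (median 2335) against 181 to 684 CPM (median 450) (log2 fold change 2.55 ± 0.32, adjusted p = 1.91e-07). Col8a1, a short-chain collagen of vessel walls, was the member on the other side, with 8.36 to 52.8 CPM (median 22.9) against 37.7 to 254 CPM (median 107) (log2 fold change -2.04 ± 0.45, adjusted p = 0.000657). Of 3 crosslinking enzymes 2 were higher in S100β-GFP+ cells, Loxl1 with 219 to 536 CPM (median 325) against 21.1 to 75 CPM (median 45.8) (log2 fold change 2.87 ± 0.25, adjusted p = 2.95e-10) and Lox with a log2 fold change of 1.60 ± 0.36, and Loxl2 did not pass (log2 fold change 0.34 ± 0.31, adjusted p = 0.449). The collagen genes Col5a3, Col6a1, Col6a2 and Col6a3 did not pass either.

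Basement membrane genes showed the opposite balance, with 9 of 20 higher in NG2-dsRed+ and 2 in S100β-GFP+ cells (median -0.59, and the same counts without libraries 14, 17 and 22). Col4a1, the core collagen of vessel basement membranes, had 249 to 1918 CPM (median 450) against 2998 to 4507 CPM (median 4012) (log2 fold change -2.42 ± 0.31, adjusted p = 2.55e-07), and its partner Col4a2 had 142 to 924 CPM (median 228) against 1525 to 2403 CPM (median 1999) (log2 fold change -2.40 ± 0.29, adjusted p = 1.33e-07). Lama5, a laminin chain of mature vessels, had 2.5 to 76.9 CPM (median 11.5) against 92.6 to 197 CPM (median 158) (log2 fold change -2.57 ± 0.56, adjusted p = 0.000577). Nid1, which links laminin to collagen IV, was on the other side, with 942 to 2844 CPM (median 1480) against 542 to 1137 CPM (median 811) (log2 fold change 1.01 ± 0.23, adjusted p = 0.000788). Col4a1 in S100β-GFP+ cells was highest in libraries 17 and 22, which also had the highest endothelial sums of that gate. Without libraries 14, 17 and 22, Col4a1, Col4a2 and Lama5 came to -3.38, -3.36 and -4.39.

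The integrins that bind these matrices were split, with 7 of 16 higher in S100β-GFP+ and 6 in NG2-dsRed+ cells (median 0.27, 6 and 6 without libraries 14, 17 and 22). The shares over all genes were 18.1% and 15.2%. The common beta chain Itgb1 had 373 to 539 CPM (median 427) against 865 to 1254 CPM (median 1098) (log2 fold change -1.30 ± 0.13, adjusted p = 4.3e-09), and Itga1, a collagen and laminin receptor chain, had 23.7 to 252 CPM (median 73) against 544 to 795 CPM (median 651) (log2 fold change -2.75 ± 0.32, adjusted p = 6.85e-08). Itga11, a collagen receptor chain of fibroblasts, went the other way with 26.7 to 138 CPM (median 50.8) against 1.42 to 5.01 CPM (median 3.16) (log2 fold change 4.25 ± 0.35, adjusted p = 8.34e-11), as did the leukocyte chain Itgb7 with 7.9 to 74.2 CPM (median 32.2) against 0.772 to 4.24 CPM (median 1.76) (log2 fold change 4.04 ± 0.41, adjusted p = 5.61e-09).

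Genes by which vessels respond to hormones and nerves were mostly higher in NG2-dsRed+ cells. Of 19 vasoactive receptors and genes of cyclic GMP signaling 12 were higher there and 4 in S100β-GFP+ cells, with a median of -2.24, and the counts were the same without libraries 14, 17 and 22 (median -2.43). Ednra, the endothelin receptor of smooth muscle, had 3.87 to 21.9 CPM (median 10.7) against 63.7 to 107 CPM (median 74.2) (log2 fold change -2.75 ± 0.32, adjusted p = 6.77e-08). Agtr1a, the angiotensin receptor, had 15.6 to 60.2 CPM (median 27) against 68.5 to 112 CPM (median 85.9) (log2 fold change -1.51 ± 0.22, adjusted p = 2.02e-06), and Avpr1a, the vasopressin receptor, had 2.63 to 6.7 CPM (median 3.42) against 17.5 to 54.6 CPM (median 35.5) (log2 fold change -3.10 ± 0.35, adjusted p = 3.36e-08). Adrenergic receptors differed by subtype: Adra1a, Adra1d and Adra2b were higher in NG2-dsRed+ cells (log2 fold changes -3.47 ± 0.60, -4.37 ± 0.55 and -3.72 ± 0.63, Adra2b at -4.52 without S100β-GFP+ library 22), and Adra1b and Adra2a in S100β-GFP+ cells (3.98 ± 0.41 and 1.21 ± 0.40). Downstream, the cyclic GMP-dependent kinase Prkg1 and the phosphodiesterase Pde5a that ends its signal were higher in NG2-dsRed+ cells, Pde5a with 9.62 to 24 CPM (median 14.4) against 57.4 to 86.5 CPM (median 70.1) (log2 fold change -2.24 ± 0.17, adjusted p = 1.99e-11). Rgs2, a brake on vasoconstrictor signaling, and the adenosine receptor Adora2b were the other genes higher in S100β-GFP+ cells, Rgs2 with 61.7 to 309 CPM (median 184) against 28.7 to 105 CPM (median 56.4) (log2 fold change 1.61 ± 0.31, adjusted p = 0.000156).

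Ion channels of glia and mural cells were higher in NG2-dsRed+ cells for 10 of 19 and in S100β-GFP+ cells for 2 (median -0.99, 11 and 2 without libraries 14, 17 and 22). Ano1, a calcium-activated chloride channel of contractile cells, had 3.12 to 24.2 CPM (median 9.46) against 78.3 to 304 CPM (median 193) (log2 fold change -3.86 ± 0.44, adjusted p = 4.56e-08), and Cacna1c, the L-type calcium channel of smooth muscle, had 1.87 to 23.4 CPM (median 6.76) against 36.2 to 96.2 CPM (median 62.3) (log2 fold change -2.89 ± 0.45, adjusted p = 8.28e-06). The 2 higher in S100β-GFP+ cells were potassium channels of glia, Kcna2 with 13.2 to 56.6 CPM (median 43.3) against 4.94 to 15 CPM (median 10.4) (log2 fold change 1.91 ± 0.25, adjusted p = 5.28e-07) and Kcnj10 with 0.706 to 27.7 CPM (median 7.51) against 0 to 1.84 CPM (median 0.519) (log2 fold change 3.68 ± 0.46, adjusted p = 2.18e-07). Of 15 transcription factors of mural cells 10 were higher in NG2-dsRed+ and 2 in S100β-GFP+ cells (median -1.35, 9 and 3 without libraries 14, 17 and 22). Tbx2 had 2.79 to 17.5 CPM (median 7.26) against 71.8 to 176 CPM (median 139) (log2 fold change -3.79 ± 0.34, adjusted p = 3.82e-10) and Foxs1 had 0.875 to 5.2 CPM (median 3.3) against 34.3 to 63.4 CPM (median 49) (log2 fold change -3.95 ± 0.38, adjusted p = 1.39e-09). Prrx1 and Gata6, which fibroblasts also use, were the 2 on the other side (log2 fold changes 1.64 ± 0.19 and 1.58 ± 0.40). Of 9 further transcription factors of the Schwann lineage 3 were higher in each gate (4 of 10 in NG2-dsRed+ and 3 in S100β-GFP+ cells without libraries 14, 17 and 22), with Id2 at 140 to 652 CPM (median 407) against 60.8 to 96.6 CPM (median 81.6) (log2 fold change 2.20 ± 0.23, adjusted p = 9.96e-09) and Etv5 at 9.22 to 18 CPM (median 12.2) against 18.7 to 34.5 CPM (median 23.1) (log2 fold change -0.89 ± 0.17, adjusted p = 0.000154). Over all genes 18.1% were higher in S100β-GFP+ and 15.2% in NG2-dsRed+ cells.

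Signals between endothelium and mural cells were then listed by role. Of 14 Notch pathway genes 11 were higher in NG2-dsRed+ and 3 in S100β-GFP+ cells (median -1.67, 10 and 3 without libraries 14, 17 and 22). Among ligands, Jag1 had 21.8 to 60 CPM (median 39) against 75.8 to 150 CPM (median 118) (log2 fold change -1.55 ± 0.21, adjusted p = 7.61e-07), and the endothelial ligand Dll4 had 0.692 to 89.4 CPM (median 2.09) against 32.7 to 185 CPM (median 102) (log2 fold change -2.23 ± 0.72, adjusted p = 0.0162). Among receptors, Notch3, the receptor of mural cells and a member of the pericyte list, had 9 to 114 CPM (median 46.5) against 330 to 900 CPM (median 588) (log2 fold change -3.45 ± 0.37, adjusted p = 1.54e-08), Notch1 and Notch4 were also higher in NG2-dsRed+ cells (log2 fold changes -1.34 ± 0.32 and -2.12 ± 0.48), and Notch2 was higher in S100β-GFP+ cells with 82.3 to 151 CPM (median 99.3) against 29 to 53.8 CPM (median 36.6) (log2 fold change 1.46 ± 0.30, adjusted p = 0.000274). Among targets, Heyl, also of the pericyte list, had 3.48 to 17 CPM (median 5.32) against 84.4 to 217 CPM (median 130) (log2 fold change -4.23 ± 0.36, adjusted p = 1.26e-10), and Hey1 and Hey2 had log2 fold changes of -2.48 ± 0.49 and -2.28 ± 0.54. Lfng, a sugar transferase that modifies Notch, and Rbpj, the DNA-binding partner of Notch, were higher in S100β-GFP+ cells, Rbpj with 69.9 to 478 CPM (median 214) against 32.5 to 113 CPM (median 64) (log2 fold change 1.89 ± 0.34, adjusted p = 5.2e-05). Without S100β-GFP+ library 17, Dll4 and Notch4 came to -3.10 and -2.76. Hes1, the target with the highest mean of the list, and the ligand Dll1 were among the 11. Each lost its call when any of 10 libraries was left out. Hes1 also lost its call with limma-voom (log2 fold change -0.97, adjusted p = 0.235) and in edgeR without libraries 14, 17 and 22 (-1.54, adjusted p = 0.147).

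PDGF ligands were divided by member, with the same calls without libraries 14, 17 and 22. Pdgfb, the endothelial ligand of Pdgfrb, had 4.15 to 41.4 CPM (median 8.36) against 14.9 to 75.5 CPM (median 52.4) (log2 fold change -1.72 ± 0.40, adjusted p = 0.00122), and Pdgfa had 11 to 35.5 CPM (median 17.5) against 38.8 to 66.4 CPM (median 52.3) (log2 fold change -1.39 ± 0.19, adjusted p = 1.15e-06). Pdgfc went the other way without overlap, with 6.62 to 39.3 CPM (median 12.8) against 0.283 to 1.93 CPM (median 0.942) (log2 fold change 3.80 ± 0.53, adjusted p = 1.34e-06). Of 10 Hedgehog pathway genes 2 were higher in each gate, also without libraries 14, 17 and 22, near the 18.1% and 15.2% of all genes. Ptch1, receptor and target of the pathway, had 6.09 to 32.6 CPM (median 13.9) against 46.8 to 102 CPM (median 71.5) (log2 fold change -2.11 ± 0.28, adjusted p = 4.43e-07) and Gli1 a log2 fold change of -1.27 ± 0.40, a call lost without NG2-dsRed+ library 28 (-0.95, adjusted p = 0.0571). Dhh, the ligand that Schwann cells make, had 3.71 to 21.8 CPM (median 10.9) against 0.89 to 14.3 CPM (median 4.82) (log2 fold change 1.10 ± 0.40, adjusted p = 0.0334), a call lost when any of 6 libraries was left out (S100β-GFP+ 1, 17 and 33, NG2-dsRed+ 13, 21 and 30, adjusted p from 0.0524 to 0.0968), and Cdon, a co-receptor, had 54.1 to 171 CPM (median 70.9) against 9.58 to 20 CPM (median 13.2) (log2 fold change 2.69 ± 0.36, adjusted p = 6.01e-07). Erbb3, the neuregulin receptor of Schwann cells and a member of the lineage list, was higher in S100β-GFP+ cells, with 5.92 to 30.4 CPM (median 12) against 1.22 to 4.96 CPM (median 2.3) (log2 fold change 2.51 ± 0.34, adjusted p = 8.54e-07). Of the other neuregulins and ErbB receptors the 3 tested, Nrg4, Egfr and Erbb2, did not pass the edgeR test, with 2 at an unadjusted p under 0.05, and DESeq2 called 2 of 7. Of 12 neurotrophic factors and receptors 3 were higher in NG2-dsRed+ cells (4 without libraries 14, 17 and 22) and 1, Lif, in S100β-GFP+ cells, a call lost without libraries 14, 17 and 22. The shares over all genes were 15.2% and 18.1%. Gfra1, a receptor for GDNF, was higher in NG2-dsRed+ cells, with 2.61 to 11.3 CPM (median 6.43) against 6.24 to 74.5 CPM (median 28.1) (log2 fold change -2.18 ± 0.39, adjusted p = 5.6e-05).

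Inflammatory signals were mostly on the S100β-GFP+ side. Of 18 chemokines and cytokines 11 were higher in S100β-GFP+ and 3 in NG2-dsRed+ cells (median 1.68, 10 and 3 without libraries 14, 17 and 22). Cxcl2, which draws neutrophils, had 344 to 4196 CPM (median 974) against 3.3 to 136 CPM (median 19.1) (log2 fold change 5.52 ± 0.73, adjusted p = 5.73e-07), and Ccl2, which draws monocytes, had 241 to 823 CPM (median 465) against 31.1 to 154 CPM (median 54.5) (log2 fold change 2.78 ± 0.33, adjusted p = 1.02e-07). Il6 had 155 to 362 CPM (median 273) against 30.9 to 103 CPM (median 60) (log2 fold change 2.01 ± 0.26, adjusted p = 3.02e-07). The growth factors of macrophages were divided: Csf1 was higher in S100β-GFP+ cells with 52.7 to 134 CPM (median 81.5) against 16.8 to 30.1 CPM (median 24.5) (log2 fold change 1.92 ± 0.15, adjusted p = 5.66e-11), and Il34, the other ligand of the same receptor, was higher in NG2-dsRed+ cells with 7.75 to 54.3 CPM (median 26.6) against 40.8 to 123 CPM (median 95) (log2 fold change -1.82 ± 0.31, adjusted p = 2.81e-05). Cxcl12, which holds blood cell progenitors in their niche, had 98.4 to 268 CPM (median 153) against 482 to 833 CPM (median 728) (log2 fold change -2.06 ± 0.20, adjusted p = 2.39e-09), and Cx3cl1 was the third higher in NG2-dsRed+ cells (-1.41 ± 0.53, adjusted p = 0.0381), a call lost without any of 11 libraries (S100β-GFP+ 1, 3, 11, 27 and 33, NG2-dsRed+ 2, 7, 9, 15, 26 and 30). Without NG2-dsRed+ library 28, Cxcl2 came to 6.23.

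**Figure D4:**
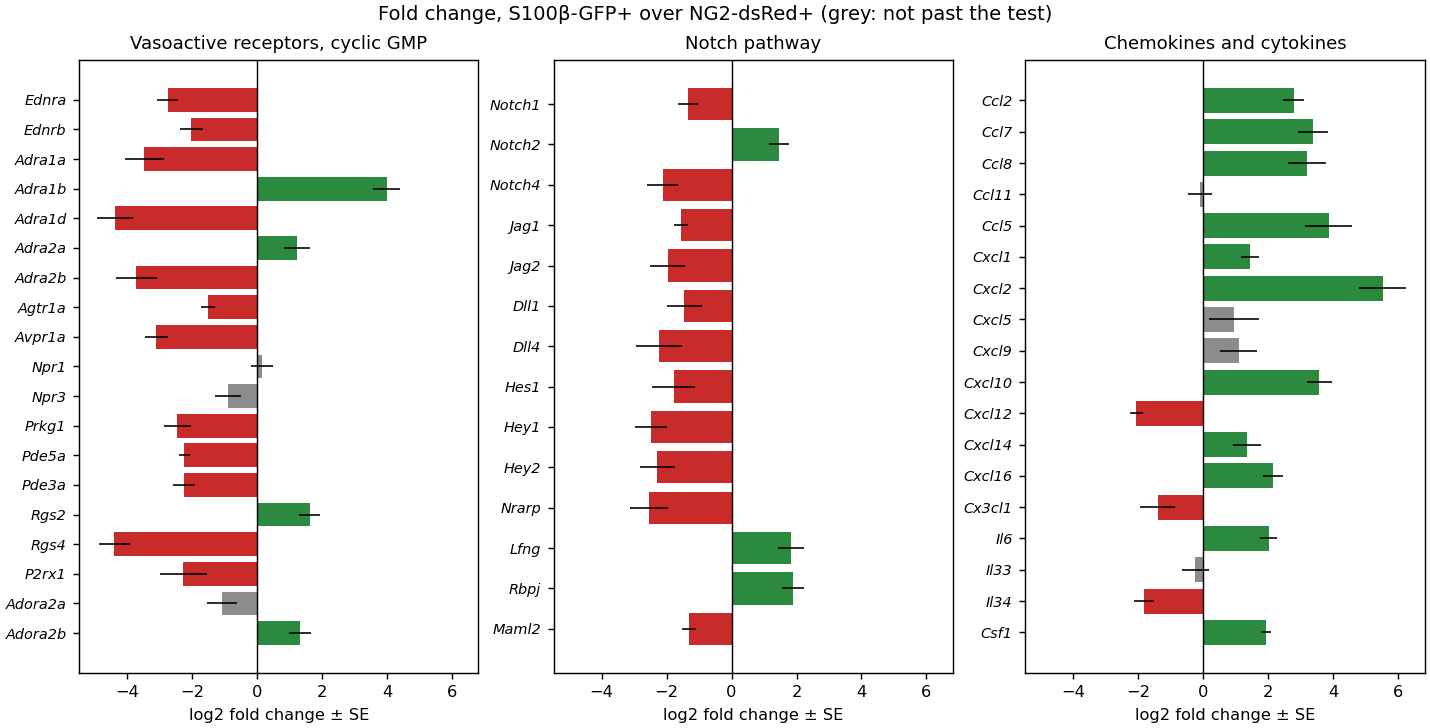
Log2 fold change, S100β-GFP+ over NG2-dsRed+, with its standard error for the genes tested of 3 lists; green bars were higher in S100β-GFP+ cells, red bars in NG2-dsRed+ cells, and grey bars did not pass the test. Most vasoactive and Notch genes lay left of 0, with Adra1b and Notch2 among the exceptions, and most chemokines lay right of it, with Cxcl12 and Il34 among the exceptions.

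Complement genes were higher in S100β-GFP+ cells for 9 of 12 and in NG2-dsRed+ cells for 2 (median 1.89, 8 and 2 without libraries 14, 17 and 22). C3, the central component, had 53.3 to 846 CPM (median 354) against 1.7 to 65.4 CPM (median 5.48) (log2 fold change 4.78 ± 0.72, adjusted p = 4.51e-06, 5.55 without NG2-dsRed+ library 15), and C4b had 56.4 to 132 CPM (median 86.5) against 0.534 to 12.6 CPM (median 2.69) (log2 fold change 4.73 ± 0.43, adjusted p = 6.78e-10). The 2 on the other side were regulators, Cd59a and Clu, at log2 fold changes of -1.05 ± 0.30 and -1.34 ± 0.44. Adhesion molecules of glia and axons were higher in S100β-GFP+ cells for 11 of 16 and in NG2-dsRed+ cells for 2 (median 1.41, 10 and 2 without libraries 14, 17 and 22). Cadm3 had 47.6 to 150 CPM (median 76.4) against 1.56 to 6.15 CPM (median 4.31) (log2 fold change 4.44 ± 0.42, adjusted p = 1.09e-09) and the guidance cue Sema3b had 73 to 109 CPM (median 92.9) against 6.58 to 22.5 CPM (median 11.3) (log2 fold change 2.83 ± 0.24, adjusted p = 1.87e-10). Cdh2, N-cadherin, which joins mural cells to endothelium, and the receptor Adgrg6 were higher in NG2-dsRed+ cells, Cdh2 with 3.62 to 8.66 CPM (median 6.4) against 13.4 to 24.9 CPM (median 17.8) (log2 fold change -1.56 ± 0.19, adjusted p = 1.48e-07).

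Genes of the cell cycle were higher in S100β-GFP+ cells for 13 of 18 members, with a median of 1.43 (14 without libraries 14, 17 and 22, median 1.82). Mki67, a marker of dividing cells, had 19.9 to 162 CPM (median 90.3) against 5.26 to 65.2 CPM (median 13.2) (log2 fold change 1.81 ± 0.49, adjusted p = 0.00426), and Top2a, a topoisomerase of dividing cells, had 21.6 to 213 CPM (median 105) against 2.1 to 93.8 CPM (median 20.2) (log2 fold change 1.82 ± 0.53, adjusted p = 0.00776). The groups overlapped, with summed levels of 198 to 211 CPM in S100β-GFP+ libraries 14, 17 and 22, 504 to 830 CPM in the other 5 and 140 to 385 CPM in NG2-dsRed+ libraries. The macrophage sums were low in the same 3 libraries, and their part in the cell cycle counts was not tested.

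Lipid synthesis, which myelination draws on, gave small differences. Of 22 genes of cholesterol synthesis 6 were higher in S100β-GFP+ cells and none in NG2-dsRed+ cells, with a median of 0.54 (4 without libraries 14, 17 and 22), against a background of 18.1%. Mvd had 6.91 to 20.8 CPM (median 11.9) against 0.993 to 4.63 CPM (median 3.52) (log2 fold change 1.94 ± 0.32, adjusted p = 1.8e-05), and Lss, lanosterol synthase, had 4.88 to 16.8 CPM (median 9.38) against 1.83 to 6.23 CPM (median 3.68) (log2 fold change 1.44 ± 0.30, adjusted p = 0.000312). Of 16 genes of fatty acid and sphingolipid synthesis 6 were higher in S100β-GFP+ and 1 in NG2-dsRed+ cells (median 0.32, 4 and 1 without libraries 14, 17 and 22). Scd2, a desaturase, had 102 to 263 CPM (median 197) against 90.2 to 141 CPM (median 108) (log2 fold change 0.76 ± 0.19, adjusted p = 0.00179), a call lost without libraries 14, 17 and 22, and Elovl6, an elongase, had 16.2 to 34.9 CPM (median 24.8) against 4.03 to 14.7 CPM (median 9.19) (log2 fold change 1.39 ± 0.23, adjusted p = 1.42e-05). Elovl5 was the gene on the other side (-0.70 ± 0.15). Of 19 genes of glycolysis and lactate transport 6 were higher in S100β-GFP+ and 5 in NG2-dsRed+ cells, and 10 and 2 without libraries 14, 17 and 22. The shares over all genes were 18.1% and 15.2%. The count on the NG2-dsRed+ side was 3 without S100β-GFP+ library 1, 11 or 27. Slc16a3, the lactate exporter MCT4, had 9.7 to 52.4 CPM (median 31.8) against 3.23 to 9.22 CPM (median 6.75) (log2 fold change 2.25 ± 0.40, adjusted p = 4.24e-05).

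Of 7 tested relatives of S100b 3 were higher in S100β-GFP+ cells, also without libraries 14, 17 and 22, against 18.1% of all genes. S100a8 and S100a9, further relatives counted with the granulocyte genes, were higher in NG2-dsRed+ cells. S100a4, known from fibroblasts and leukocytes, had 19.4 to 357 CPM (median 90.9) against 8.23 to 49.9 CPM (median 17.5) (log2 fold change 2.83 ± 0.59, adjusted p = 0.000363), and S100a10 had 301 to 702 CPM (median 556) against 133 to 322 CPM (median 193) (log2 fold change 1.31 ± 0.22, adjusted p = 2.13e-05). Genes induced early by stress and by dissociation were high in both gates, with summed levels of 12161 to 15075 CPM in S100β-GFP+ and 12147 to 21085 CPM in NG2-dsRed+ libraries. Of 20 such genes 2 were higher in S100β-GFP+ and 8 in NG2-dsRed+ cells (median -0.35, the same counts without libraries 14, 17 and 22). The shares over all genes were 18.1% and 15.2%. Fos had 1872 to 2975 CPM (median 2734) against 2694 to 4553 CPM (median 3112) (log2 fold change -0.37 ± 0.25, adjusted p = 0.282). Egr1 had 1193 to 2069 CPM (median 1428) against 1520 to 2801 CPM (median 1758) (log2 fold change -0.33 ± 0.19, adjusted p = 0.193). Neither passed the edgeR test on all libraries. With limma-voom both passed on the NG2-dsRed+ side (-0.39 and -0.37, adjusted p = 0.0362 and 0.0311). Egr1 also passed edgeR with the share of Lars2, Gm23935 and Gm15564 as a term (-0.38, adjusted p = 0.0459). The same held without libraries 14, 17 and 22 (-0.54, adjusted p = 0.0419). Nr4a1 was higher in NG2-dsRed+ cells with 190 to 339 CPM (median 247) against 342 to 726 CPM (median 616) (log2 fold change -1.11 ± 0.23, adjusted p = 0.00031). Of 12 interferon-stimulated genes 3 were higher in NG2-dsRed+ cells and none in S100β-GFP+ cells (median -0.41), against 15.2% of all genes, and 6 were so without libraries 14, 17 and 22 and 7 with limma-voom. With 1 library left out the count lay between 0 (without S100β-GFP+ library 11 or 33) and 5 (without S100β-GFP+ library 17).

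**Figure D5:**
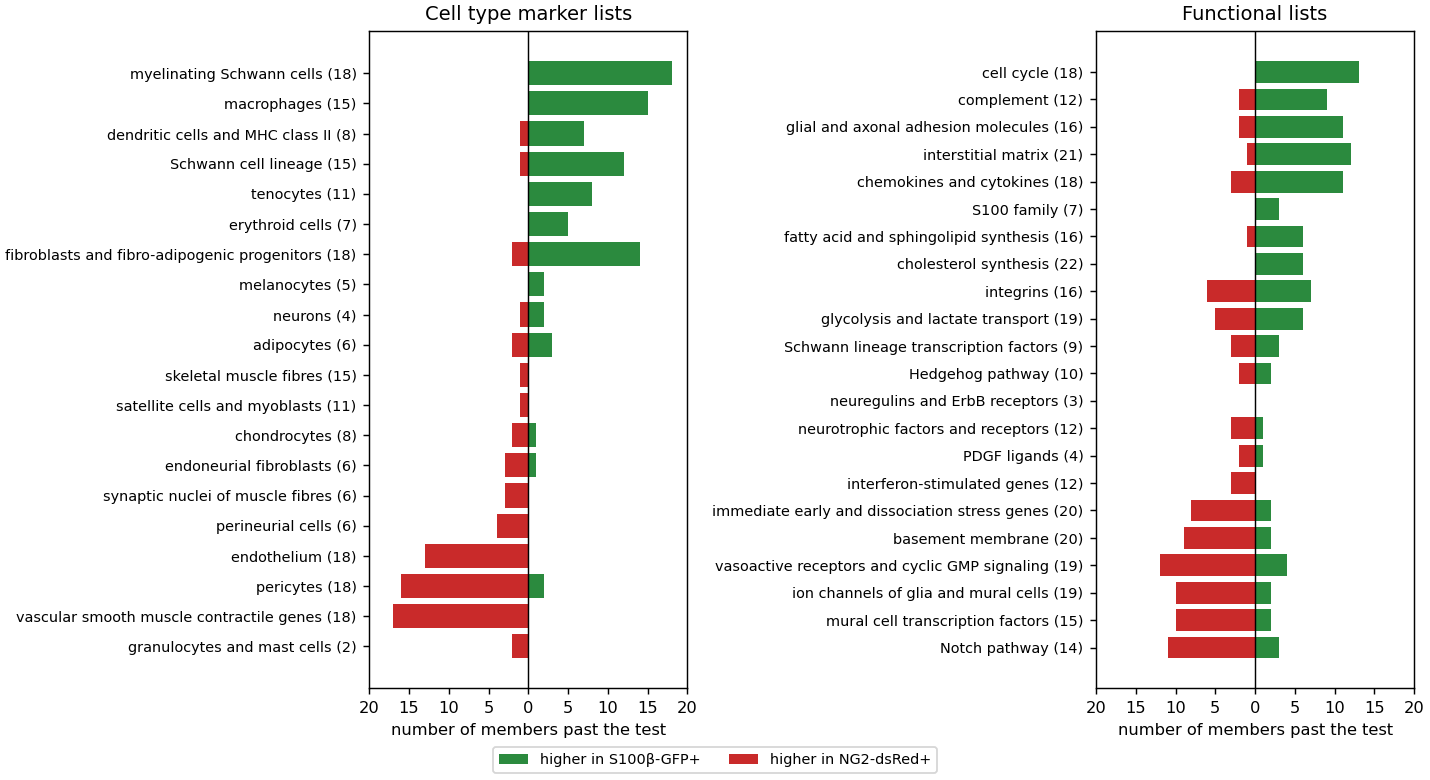
Number of members of each list past the test, to the right for genes higher in S100β-GFP+ cells and to the left for genes higher in NG2-dsRed+ cells, with the number tested in brackets. Myelin, macrophage, fibroblast, cell cycle, matrix and chemokine genes extend to the right, and mural cell, endothelial, Notch and vasoactive genes to the left.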

How the data were processed

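RNA-seq libraries of sorted cells were analysed from the table of gene counts that the authors deposited. For these counts the authors used ea-utils and Btrim for trimming, HISAT2 for alignment and HTSeq for counting reads per gene. The submitters' processing notes name the build GRCm38, and the sources used here give no annotation, tool versions or strand setting. Symbols came from GENCODE M21, which matched 99.72% of the 52636 identifiers. RNA of few cells was amplified, so counts include amplification noise, and intervals and floors (3 counts) cover counting error only.

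Groups came from the labelled cell type. Genes were kept with edgeR's filterByExpr at a minimum count of 10, which left 15330, and counts were TMM normalized. One quasi-likelihood model of the 27 libraries of 3 cell types was fitted with edgeR 4.0.16 in R 4.3.3, and Benjamini-Hochberg adjusted p-values under 0.05 over all genes tested were called. Each replicate came from 1 mouse per the methods, so p-values measure the spread between these libraries. No pair of replicates held identical counts or agreed within sampling noise (lowest chi-square per degree of freedom 12.4 in S100β-GFP+ and 8.1 in NG2-dsRed+ cells). On simulated counts for this comparison edgeR recovered 35.4% of 2-fold and 86.5% of 4-fold changes over 14973 genes.

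Genes named were S100b and Cspg4, the 15 protein-coding genes in each direction with the largest fold change among those past the test, without overlap between groups and with a mean of at least 5 CPM (1025 and 627 were eligible), and members of the lists with the highest mean. Other members were chosen after their values were seen. Some measured genes are not reported here. The comparison, its lists of cell type markers and functions and their members were chosen with earlier results of these data known. Alternatives were DESeq2 1.42.0 (its test with no filter on low counts, or its size factors in edgeR), limma 3.58.1 voom with quality weights, no filter, only the 2 cell types, a term for the summed share of Gm15564, Gm23935 and Lars2, a test against a 2-fold change, and leaving out each library or S100β-GFP+ libraries 14, 17 and 22. The 9 labelled samples without a column, the qPCR and the imaging were not analysed here.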

Additional observations from a re-analysis of the deposited data

Results flagged for a closer look

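Within each group the highest and lowest library were compared with the nearest of the others by Dixon's test, over 105 groups of values from 53 genes and list sums. In 20 groups a library stood apart. Chance gives about 1 in 20 groups for independent values from a normal distribution. The values here were CPM without a log, and several flagged groups share a library, so the 20 groups cannot be set against that rate. The causes of the flagged values were not tested.

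Among genes in NG2-dsRed+ cells, library 26 stood apart for 6 of the myeloid and other leading genes of the opposite gate. It had 2.86 CPM of Fcrls (next library 0.761), 1.43 CPM of Akr1c18 (0.526), 32 CPM of Retnla (10.8), 5.59 CPM of H2-Eb1 (3.17), 1.69 CPM of Mmp12 (0.567) and 10.1 CPM of H2-Ab1 (5.46). These levels were under those of every S100β-GFP+ library. NG2-dsRed+ library 28 had 17.8 CPM of S100b (10.1), library 30 had 0.283 CPM of Slamf7 (0.142), a level of 2 counts, and library 13 had 75.6 CPM of Susd5 (49.2).

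In S100β-GFP+ cells library 1 had 65.3 CPM of Slamf7 (next library 33.1), library 3 had 968 CPM of Lyz1 (444), library 22 had 4.94 CPM of Pde8b (2.36) and library 17 had 33.1 CPM of Gja4 (14.8).

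Among sums over marker lists, S100β-GFP+ library 17 had 131376 CPM of erythroid genes (55328) and library 1 had 2235 CPM of tenocyte genes (1081). NG2-dsRed+ library 2 had 11623 CPM of erythroid genes (2152) and 320 CPM of granulocyte and mast cell genes (49.6). NG2-dsRed+ library 28 had 331 CPM of endoneurial fibroblast genes (220), library 13 had 11310 CPM of contractile smooth muscle genes (8037), and library 30 had 37.9 CPM of melanocyte genes (26.1).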

How the results depend on the processing

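Of 375 genes of the lists and leading genes that passed the test, 242 passed it in each of the 26 alternatives that gave a value, and 133 lost the call in at least 1 of them, 129 of these in the test against a 2-fold change, 25 without S100β-GFP+ libraries 14, 17 and 22 and 40 with 1 library left out. No gene was called in opposite directions by any alternative. The number of genes higher in S100β-GFP+ cells was 4187 with DESeq2, which was run with no filter on low counts (44705 genes in place of 15330), 8194 with edgeR and no filter and 1194 in the 2-fold test, against 2771. The number higher in NG2-dsRed+ cells was 3511 with voom and 608 in the 2-fold test, against 2328. With 1 library left out these numbers lay between 2556 and 2878 and between 2022 and 2473. The share of calls on the S100β-GFP+ side was 54.3%, and came to 64.8% with DESeq2 and no filter, 77.4% with edgeR and no filter, 59% with only the size factors of DESeq2 and 66.3% in the 2-fold test. DESeq2's size factors moved the median of all genes to 0.04. In the 2-fold test 3 endothelial genes were higher in NG2-dsRed+ cells, against 13. Adipoq, Plin1, Cfd, Col9a3, Hcst, S100a8 and Tyrp1 did not pass the filter in the fit of only the 2 cell types. The causes were not tested, except that the 2-fold test asks for larger changes by its construction.

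Signs turned for genes that had not passed the test and for erythroid genes. Cdh19, at 0.07, came to -0.42 with voom, -0.04 with the share of Lars2, Gm23935 and Gm15564 as a term and -0.03, -0.15 and -0.24 without NG2-dsRed+ library 15, S100β-GFP+ library 1 and S100β-GFP+ library 33, and at most 0.28 with 1 library left out (NG2-dsRed+ library 28). Ngfr, at -0.37, came to 0.09 without libraries 14, 17 and 22. Actg2, at -0.06, came to 0.33 without libraries 14, 17 and 22 and to between 0.00 and 0.38 without any 1 of 6 libraries (0.01, 0.07 and 0.11 among them), and was lowest without S100β-GFP+ library 33, at -0.47. With voom, Hba-a1, Hbb-bs, Hbb-bt and Alas2 came to -0.00, -0.31, -0.41 and -0.59.

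No paired analysis was possible because the library numbers run once through all groups and no number is shared between groups. Depth of 5221655 to 9411399 counts limits genes at a few counts, and amplification of few cells adds noise that these counts do not separate.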
